A study of Homo sapiens with 3 samples.

Results

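The genes described here are those of the platelet-derived growth factor (PDGF) family: the receptors PDGFRA and PDGFRB, the receptor-like gene PDGFRL and the ligand genes PDGFA, PDGFB, PDGFC and PDGFD. They were taken by gene symbol and are 7 of the 43316 gene names on the array, measured by 9 probes. These names are counted as genes below and include noncoding transcripts and probes without a gene symbol. Messenger RNA was measured in 3 cell lines, each on 1 Agilent single-colour array, and all 3 arrays were on the same slide. H1975 is a non-small cell lung cancer line with mutated EGFR and is sensitive to osimertinib, an inhibitor of that mutated kinase. OR1 and OR2 are osimertinib-resistant lines that were derived from H1975 independently, in separate flasks, by raising the osimertinib dose stepwise to 2 μmol/L. All lines share the H1975 origin and the same serum-containing medium, and the sources used here do not say whether osimertinib was present when RNA was taken. The methods call OR1 and OR2 clones, so each stands for a single selected population, and nothing here measures how other selections would vary. The question was which PDGF genes differ between the resistant lines and their parent.

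PDGF ligands are secreted as dimers and bind receptor tyrosine kinases on the cell surface, where binding pairs the receptors, starts their kinase activity and draws in adaptors of the RAS, phosphatidylinositol 3-kinase and phospholipase C-gamma pathways. In tissue the ligands often come from epithelial or endothelial cells, while the receptors are typically carried by mesenchymal cells such as fibroblasts, smooth muscle cells and pericytes. In the developing lung, PDGFA from the epithelium acts on mesenchymal cells that carry PDGFRA.

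PDGFRB was higher in both resistant lines, PDGFA and PDGFB were lower in both, PDGFRL was somewhat higher and reached a ratio of 2 in OR2 only, PDGFC lay on opposite sides of H1975 in the 2 lines, and PDGFRA and PDGFD were not measurable in any line. Levels are given as scaled intensity, the brightness of a probe's spot divided by the 75th percentile of its array and multiplied by 100, so that a probe can be compared between lines but not with another probe. That percentile was 157.5, 138.1 and 161.8 for H1975, OR1 and OR2. A spot is called measurable where the scanner software marked it well above background, and the lowest scaled intensities so marked were 7.98, 8.26 and 7.80 in H1975, OR1 and OR2. A ratio is the scaled intensity of a resistant line over that of H1975 for the same probe. Its technical SD comes from the software's error for each spot and covers neither variation between arrays nor variation between cultures. No line was replicated, so precision is limited by the number of arrays and a ratio comes without a p-value. Both ratios of a gene use the same H1975 array, so an error on that array moves both in the same direction.

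**Figure D1:**
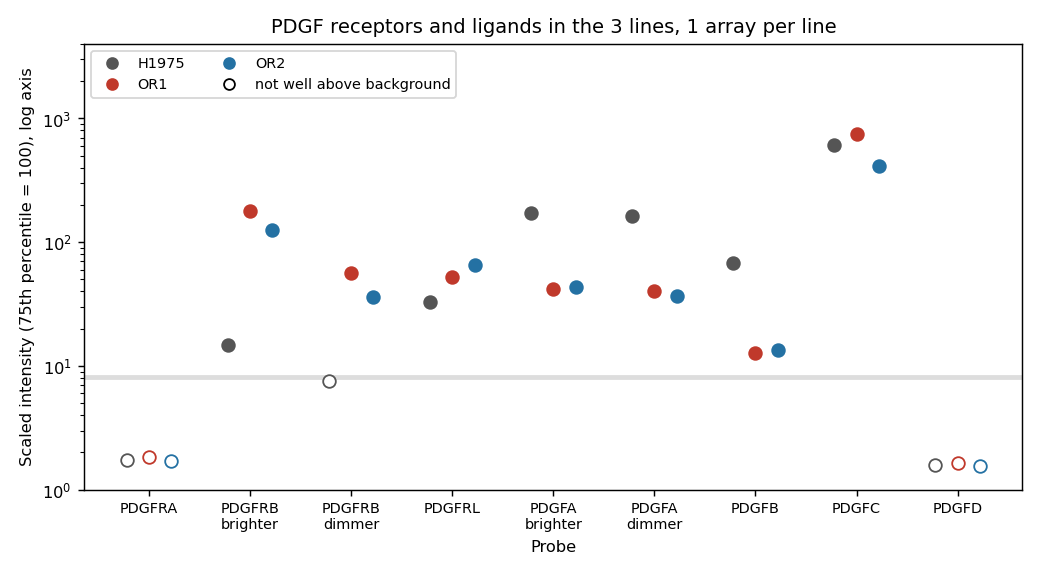
Scaled intensity (75th percentile of the array = 100, log axis) of the 9 PDGF probes in H1975, OR1 and OR2, 1 point per array. Open circles mark spots not well above background and the grey band spans the lowest scaled intensities that were, 7.80 to 8.26. The PDGFRB points of OR1 and OR2 lie above that of H1975, those of PDGFA and PDGFB below, and all 3 points of PDGFRA and PDGFD lie under the band.

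Among the receptors, PDGFRB had the higher level in the resistant lines and PDGFRA was below measurement. PDGFRB encodes the receptor that binds PDGF-BB and PDGF-DD and is known for its role in pericytes and vascular smooth muscle. It was measured by 2 probes (NM_002609) on the minus strand of chromosome 5, at 149493464 to 149493523 and at 149534999 to 149535058 of hg19. The first 30 bases of each probe are printed to show which parts of the transcript were read, in lower case and 5′ to 3′ as in the array files:
PDGFRB, brighter probe: actcacgttaactcacatttatacagcaga
PDGFRB, dimmer probe: tttctgataactgggagagggcagtaagga
The longest run of bases that either 60-base probe shared with a probe of another gene name was 14. The brighter probe had a GC content of 31.7% and the dimmer one 55.0%.

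The brighter PDGFRB probe had scaled intensities of 14.9, 179 and 125 in H1975, OR1 and OR2, all well above background. OR1 was highest, OR2 second and H1975 lowest, and H1975 lay less than 2 times above the lowest measurable value of its array. Its ratios to H1975 were 12.0 (OR1) and 8.40 (OR2), and on the log2 scale each had a technical SD of 0.27. The dimmer PDGFRB probe was not measurable in H1975, at a scaled intensity of 7.61, and stood at 56.1 (OR1) and 36.2 (OR2). Its ratios were thus at least 7.03 (OR1) and at least 4.54 (OR2), bounds computed against the lowest measurable value in H1975. Both probes thus put the lines in the same order. PDGFRB was 1.43 times as high in OR1 as in OR2 by the brighter probe and 1.55 times by the dimmer one, log2 ratios of 0.52 and 0.63 with technical SDs of 0.21 and 0.22. This difference between the resistant lines exceeds the spot error, but its direction depended on the scaling. Scaling on the spike-in probes gave the brighter probe ratios to H1975 of 7.94 (OR1) and 8.81 (OR2). Variation between cultures was not measured.

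Among the 18589 genes measurable on all 3 arrays, 55 had a higher ratio than PDGFRB in OR1 and 83 in OR2. In limma, with the resistant lines as 2 samples, PDGFRB was higher by 3.33 on the log2 scale, with a Benjamini-Hochberg adjusted p of 0.0437 from limma over 22417 genes. That fit has 1 residual degree of freedom and takes the spread between OR1 and OR2 to hold for H1975 too. The H1975 level was low, and the PDGFRB ratio was smaller with normexp background correction, a model of background and signal. The ratio was then 4.13 in OR1 and 3.03 in OR2. That setting also adds an offset of 50 to the intensities. The unscaled H1975 intensity of the brighter probe was 23.43, below that offset. The model was not run without the offset, so the share of each in the smaller ratio was not tested.

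The bases upstream of the PDGFRB transcription start are shown because PDGFRB had the largest ratio of the family, although no measurement here was made on DNA. The 250 bases before the start lie at chr5:150155846-150156095 on the minus strand of GRCh38.p14, as RefSeq gives them, with the CCAAT match in capitals:
PDGFRB, upstream: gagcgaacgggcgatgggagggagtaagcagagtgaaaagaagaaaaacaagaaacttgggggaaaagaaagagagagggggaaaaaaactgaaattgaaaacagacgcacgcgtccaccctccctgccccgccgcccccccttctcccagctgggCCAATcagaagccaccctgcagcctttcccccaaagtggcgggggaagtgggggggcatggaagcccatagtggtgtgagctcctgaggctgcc
On both strands, this window held 1 match to CCAAT, which begins 94 bases before the start, 1 match to GGGCGG and 0 to TATAAA. Of 35116 windows of 250 bases upstream of human gene starts, 11240 (32.0%) held CCAAT, 14973 (42.6%) held GGGCGG and 3763 held TATAAA, and the matches in this window do not overlap. These matches describe letters only and were not tied to any binding.

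PDGFRA encodes the receptor that binds most PDGF dimers and marks many mesenchymal cells of the lung. Its single probe (NM_006206, chromosome 4, 55163989 to 55164048 of hg19, plus strand) had scaled intensities of 1.75, 1.82 and 1.70 in H1975, OR1 and OR2. None of these was well above background, so no ratio was computed and PDGFRA can only be said to lie under the measurable range in all 3 lines.

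PDGFRL encodes a secreted protein that resembles the extracellular part of the PDGF receptors and has no kinase domain. Its single probe (NM_006207) had scaled intensities of 32.7, 52.5 and 65.8 in H1975, OR1 and OR2, well above background in all. H1975 was lowest and OR2 highest. The ratio to H1975 was 1.61 in OR1 (technical SD 0.22 on the log2 scale) and 2.01 in OR2 (technical SD 0.22). OR1 stood at 0.799 of OR2, a log2 ratio of -0.32 with a technical SD of 0.21. PDGFRL passed the ratio of 2 only in OR2 and only just, and in limma its adjusted p was 0.299. In OR1, scaling on the spike-in probes took its ratio to 1.06. Of the genes measurable on all 3 arrays, 2773 had a higher ratio than PDGFRL in OR1 and 1227 in OR2.

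The ligand genes PDGFA and PDGFB were lower in both resistant lines, at ratios of 0.188 to 0.249, PDGFC passed neither 2 nor 0.5, and PDGFD was not measurable. PDGFA encodes the A chain, whose dimer binds PDGFRA, and PDGFB encodes the B chain, whose dimer binds both receptors. PDGFC and PDGFD encode chains that carry a CUB domain, which proteases remove before the ligand can bind, PDGF-CC mainly to PDGFRA and PDGF-DD to PDGFRB. The first 30 bases of the ligand probes with a measurable level are printed for the same purpose as above:
PDGFA, brighter probe: gtttacctaatattacctgttttgtatacc
PDGFA, dimmer probe: gcccgcagtcagatccacagcatccgggac
PDGFB: agactgtggtaggggcagggaggcaacact
PDGFC: catggatatttttatgtacagaagtatgtc
They lie on hg19, all on the minus strand. The PDGFA probes are at 536929 to 536988 (NM_002607) and 557032 to 557091 (NM_033023) of chromosome 7. The PDGFB probe (NM_002608) is at 39620099 to 39620158 of chromosome 22 and the PDGFC probe (NM_016205) at 157682899 to 157682958 of chromosome 4. The longest run of bases shared with a probe of another gene name was 14 for the brighter PDGFA and the PDGFB probe and 13 for the dimmer PDGFA and the PDGFC probe.

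The brighter PDGFA probe had scaled intensities of 173.5, 41.9 and 43.1 in H1975, OR1 and OR2. H1975 was clearly highest and the resistant lines were nearly level. Its ratios to H1975 were 0.241 (OR1) and 0.249 (OR2), with technical SDs of 0.22 on the log2 scale. The dimmer PDGFA probe, elsewhere in the gene and richer in GC (61.7% against 35.0%), had scaled intensities of 161.4, 40.1 and 37.0 in H1975, OR1 and OR2. Its ratios were 0.248 (OR1) and 0.229 (OR2). The resistant lines could not be ordered for PDGFA, since the ratio of OR1 to OR2 was 0.971 by one probe and 1.08 by the other, log2 ratios of -0.04 and 0.12 with a technical SD of 0.23 each. The probes carry accessions of different PDGFA transcripts, and whether either is specific to one transcript was not examined.

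PDGFB had scaled intensities of 67.9, 12.8 and 13.5 in H1975, OR1 and OR2. The resistant lines again lay together and far under H1975, within 2 times of the lowest measurable value of their arrays. The ratio to H1975 was 0.188 in OR1 (technical SD 0.31 on the log2 scale) and 0.199 in OR2 (technical SD 0.29). OR1 and OR2 were not distinguishable for PDGFB, with a ratio of 0.944 of OR1 to OR2, a log2 ratio of -0.08 and a technical SD of 0.37. Of the genes measurable on all 3 arrays, 310 had a lower ratio than PDGFA in OR1 and 259 in OR2, and 204 and 163 had a lower ratio than PDGFB. In limma, with OR1 and OR2 as 2 samples, PDGFA was lower by a log2 difference of -2.03 (adjusted p 0.0672) and PDGFB by -2.37 (adjusted p 0.0518), neither under 0.05. With normexp background correction and its offset of 50, both stayed under 0.5. PDGFA was then at 0.413 in OR1 and 0.399 in OR2, and PDGFB at 0.496 and 0.472.

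PDGFC had scaled intensities of 612.8, 754.6 and 416.5 in H1975, OR1 and OR2, the resistant lines lying on either side of their parent. Its ratios to H1975 were 1.23 (OR1) and 0.680 (OR2), neither past 2 or 0.5, and on the log2 scale each had a technical SD of 0.20. PDGFC was 1.81 times as high in OR1 as in OR2, a log2 ratio of 0.86 with a technical SD of 0.20. The side on which OR1 lies depended on the scaling, since scaling on the spike-in probes gave 0.812 in OR1 and 0.713 in OR2. In limma the adjusted p of PDGFC was 0.918.

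PDGFD (NM_025208, chromosome 11, 103778386 to 103778445 of hg19, minus strand) had scaled intensities of 1.57, 1.63 and 1.55 in H1975, OR1 and OR2. It was not well above background in any line, and no ratio was computed.

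**Figure D2:**
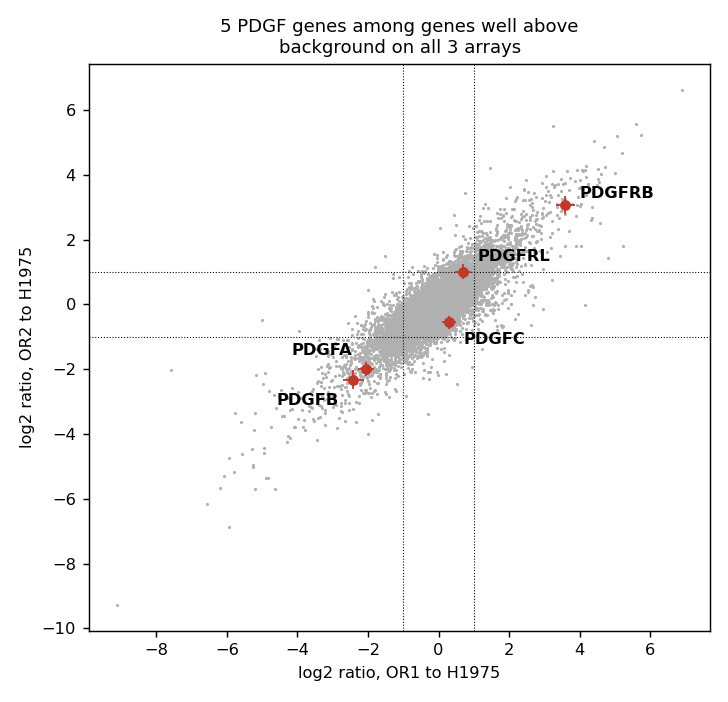
Log2 ratio of OR1 to H1975 (x axis) and of OR2 to H1975 (y axis) for the 18589 genes measurable on all 3 arrays (grey), with the 5 PDGF genes among them in red and their technical SDs as bars. Dotted lines mark ratios of 2 and 0.5. PDGFRB lies at 3.59 and 3.07, PDGFA at -2.05 and -2.01 and PDGFB at -2.41 and -2.33, while PDGFRL lies at 0.68 and 1.01 and PDGFC at 0.30 and -0.56. The axes share the H1975 array.

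A gene was called higher where it was measurable in the resistant line with a ratio of at least 2, and lower where it was measurable in H1975 with a ratio of at most 0.5, the ratios of the study's methods. Of the 7 PDGF genes, 5 were measurable on at least 1 array and 2, PDGFRA and PDGFD, on none. In OR1, 1 of the 5 measurable genes was called higher and 2 lower. Of the 22417 genes measurable on at least 1 array, 8.95% were called higher and 9.34% lower. In OR2, 2 of the 5 were called higher and 2 lower, against 7.47% and 8.41% of all such genes. In both lines, 1 was called higher (PDGFRB), against 5.09% of all genes, and 2 were called lower (PDGFA and PDGFB), against 6.32%. With 5 measurable genes these counts are too small to set the family apart from other genes. No PDGF gene was called in opposite directions in OR1 and OR2.

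**Figure D3:**
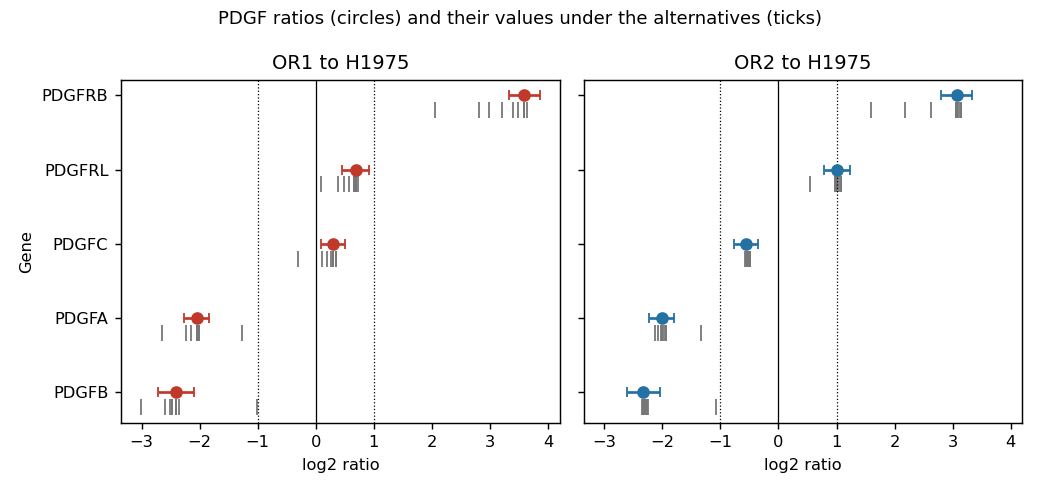
Log2 ratio to H1975 in OR1 (left) and OR2 (right) of the 5 measurable PDGF genes. Circles are the values reported, bars their technical SDs, and ticks under each circle the 12 alternative processings, where the ticks of PDGFRB from both probes or from the dimmer probe are lower bounds. Dotted lines mark ratios of 2 and 0.5. Every tick of PDGFRB is above 2 and every tick of PDGFA and PDGFB under 0.5, PDGFRL crosses 2 in OR2 and PDGFC crosses 1 in OR1.

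Genes around the receptors were described by lists, set up with earlier results of these data known and given as counts, with no test. In the log2 medians that follow, over genes measurable on all 3 arrays, all 18589 such genes had a median ratio of 0.03 in OR1 and -0.05 in OR2. For the counts that follow, of all 22417 genes measurable on at least 1 array 5.09% were called higher in both lines and 6.32% lower. Of 12 genes whose products process or bind PDGF ligands, 11 were measurable on at least 1 array, 0 were called higher in both lines and 3 lower. PCSK5, a proprotein convertase of the family that cleaves PDGF-A and PDGF-B precursors, fell from a scaled intensity of 1408 in H1975 to 21.0 (OR1) and 35.7 (OR2), ratios of 0.0149 and 0.0254. A further PCSK5 probe, measurable in H1975 only, gave at most 0.0606 and at most 0.0572, and the remaining one was measurable on none of the arrays. The proteases PLAU and ST14, which are known to activate PDGF-DD among other substrates, had ratios of 0.234 and 0.111 in OR1 and 0.346 and 0.133 in OR2. FURIN, another convertase of PDGF precursors, had 0.753 and 0.623, and PLAT, an activator of PDGF-CC, had 0.679 and 0.933, so neither passed 0.5. The list's median log2 ratio was -0.48 in OR1 and -0.60 in OR2. SPARC and A2M, both known to bind PDGF, were picked out after their values were seen. SPARC had ratios of 0.0314 and 0.714 in OR1 and OR2, and A2M was measurable in OR1 only, at least 29.1 times the H1975 level.

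Among 25 adaptors and effectors of the PDGF receptors, all were measurable on at least 1 array. By their brightest probe, 2 were called higher in both lines and 2 lower, beside 5.09% and 6.32% of all genes. For PDCD6IP the brightest probe gave 1.06 in OR1 and 1.35 in OR2, while dimmer ones gave 2.49 and 3.04, and 1.57 and 2.31. VAV3, a guanine nucleotide exchange factor, had ratios of 6.74 and 5.56 in OR1 and OR2, and PIK3R2, a regulatory subunit of phosphatidylinositol 3-kinase, had 2.32 and 2.02. GRB7 and GRB14, SH2-domain adaptors, had ratios of 0.210 and 0.141 in OR1 and 0.341 and 0.0887 in OR2. By their brightest probes, the common adaptors GRB2 and SHC1, the phosphatase PTPN11 and PLCG1 lay between 0.771 and 1.30 in both lines. A dimmer PTPN11 probe, well above background in all lines, gave 1.79 in OR1 and 1.05 in OR2. The median log2 ratio of the adaptors was -0.29 in OR1 and 0.03 in OR2.

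The shares of all genes called in both lines, 5.09% higher and 6.32% lower, stand beside the next 2 lists too. Of 10 genes that attenuate the receptors, 0 were called higher and 1 lower in both lines. That gene was RASA1, a GTPase-activating protein for RAS that docks on PDGFRB, with ratios of 0.308 and 0.419 in OR1 and OR2. Of 16 genes that respond to growth factors in many cell types, 15 were measurable on at least 1 array, 1 was called higher and 3 lower in both lines. CCL2, a chemokine gene long known as induced by PDGF, rose from a scaled intensity of 20.0 in H1975 to 603.5 (OR1) and 227.8 (OR2), ratios of 30.2 and 11.4. DUSP6, an ERK phosphatase, had ratios of 0.151 and 0.214, JUNB, a transcription factor of early response, 0.413 and 0.420, and HAS2, a hyaluronan synthase, at most 0.264 and at most 0.249. The median log2 ratio was 0.10 in OR1 and 0.01 in OR2 for the attenuating genes, and -0.19 and -0.30 for the response genes. The response genes answer to other receptors too, and PDGF receptor activity was not measured on the arrays.

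**Figure D4:**
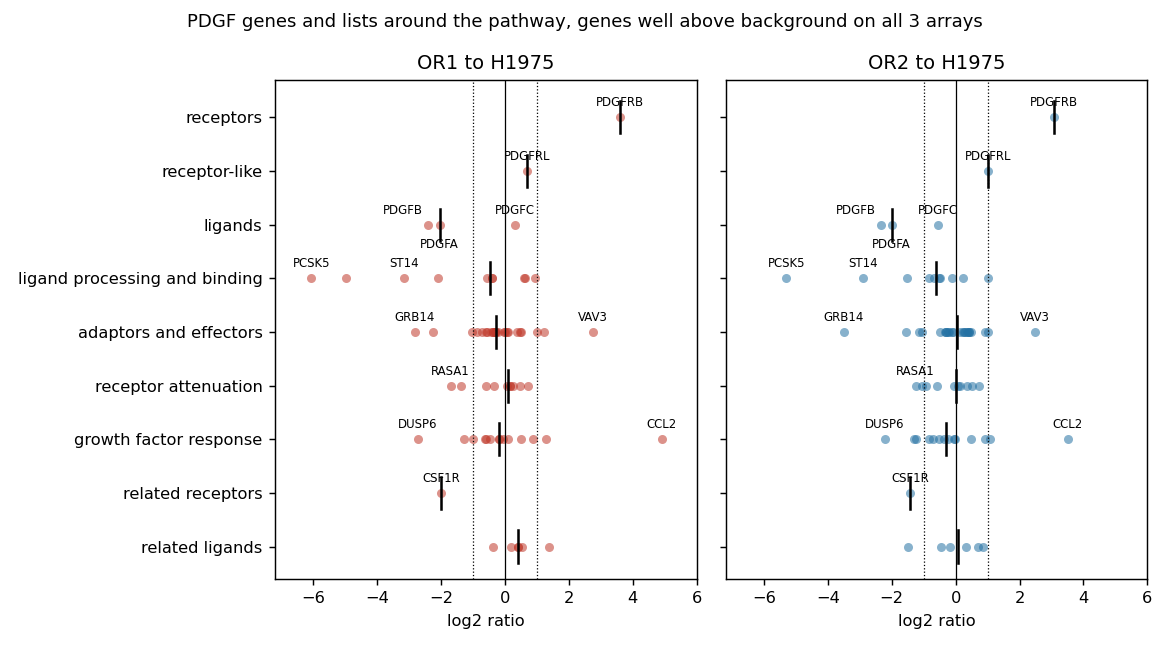
Log2 ratio to H1975 in OR1 (left) and OR2 (right) of the genes measurable on all 3 arrays in the PDGF groups and in 6 lists around the pathway, 1 point per gene, with black bars at the list medians and dotted lines at ratios of 2 and 0.5. PDGFRB, VAV3 and CCL2 lie to the right and PDGFA, PDGFB, PCSK5, ST14, GRB14, DUSP6 and CSF1R to the left in both lines, while most adaptors lie between the dotted lines.

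The receptors most related to the PDGF receptors were largely below measurement. Of KIT, CSF1R, FLT3, FLT1, KDR and FLT4, only CSF1R, the receptor for the ligands CSF1 and IL34, was well above background. Of 9 ligand genes of these related receptors, 6 were measurable and 0 were called higher or lower in both lines by their brightest probe. For CSF1 that probe gave 1.33 in OR1 and 1.26 in OR2. A dimmer CSF1 probe, well above background in all lines, passed 2 in both, at 2.29 and 3.47. CSF1R lies beside PDGFRB, its probe 60.5 kb from the nearest PDGFRB probe, and moved the other way, from a scaled intensity of 1672 in H1975 to 416.3 (OR1) and 626.3 (OR2), ratios of 0.249 and 0.375. Of the 24 genes with a probe within 500 kb of a PDGFRB probe, 17 were measurable on at least 1 array, 0 were called higher in both lines and 4 lower. The others called lower were CD74 (at most 0.191 and at most 0.180 in OR1 and OR2), LOC102546298 (0.268 and 0.419) and NDST1 (0.462 and 0.460). The median log2 ratio of the 15 neighbours measurable on all 3 arrays was -0.49 in OR1 and -0.69 in OR2. At the ratio of 2, no measurable neighbour was called higher with PDGFRB in both lines. Among 17 genes a share of 5.09% would give few, so the count of 0 called higher does not set the locus apart. The 4 called lower stand beside a share of 6.32% of all genes. The neighbour medians stand beside 0.03 (OR1) and -0.05 (OR2) over all genes measurable on all 3 arrays. Whether the locus differs from others was not tested.

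Around the other members, the neighbours called in both lines were few, beside 5.09% of all genes called higher and 6.32% lower. Near PDGFRL, whose probe lies on the plus strand of chromosome 8 at 17500476 to 17500535 of hg19, 2 of 10 measurable neighbours were called higher, the amino acid transporter gene SLC7A2 (7.71 in OR1 and 6.89 in OR2) and ZDHHC2 (2.13 and 2.43). Near PDGFA, with 27 measurable neighbours, LOC101926963 was called higher (at least 2.92 and at least 4.64) and ENST00000465755 lower (at most 0.387 and at most 0.365). Near PDGFB, APOBEC3F (2.43 and 2.01) was the only one of 29 called. Near PDGFRA, PDGFC and PDGFD there were 3, 1 and 2 measurable neighbours, and 0 were called in both lines.

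Among the 18589 genes measurable on all 3 arrays, the 5 whose pair of log2 ratios lay nearest to that of PDGFRB included SLC4A11, FRAS1, CDCP1 and a long noncoding RNA, at distances of 0.18 to 0.22 on the log2 scale. SLC4A11, a membrane transporter gene, had ratios of 11.9 in OR1 and 9.495 in OR2, and FRAS1, a basement membrane protein gene, had 13.7 and 8.64. This likeness rests on 3 arrays and 2 ratios that share H1975.

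Because PDGFRB is best known from mesenchymal cells, marker lists for such cells and for lung epithelium were read in the same arrays. Each sample is a culture of a lung cancer line, so the lists read marker transcripts in tumour cells and do not count other cell types. In a bulk sample of a line, a change in some of its cells and a change in all of them cannot be told apart. Of 8 fibroblast markers, 3, 3 and 1 were measurable in H1975, OR1 and OR2. The scaled intensities of all 8 summed to 439.5, 499.8 and 68.1. Sums here and below take every marker of a list on the array, measurable or not. Such sums weigh bright probes most, and COL1A1 made up most of this one in each line, with ratios of 1.45 (OR1) and 0.183 (OR2). COL3A1, DCN, THY1 and PDPN were not well above background in any line, COL1A2 had ratios of 0.162 (OR1) and at most 0.0615 (OR2), and LUM was measurable in OR1 only, at least 5.43 times the H1975 level. In both lines at once, 0 fibroblast markers were called higher and 1 lower. Of all genes, 5.09% were called higher in both lines and 6.32% lower, shares that stand beside the marker lists below too.

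Of 8 pericyte markers, 6 were well above background in each line, with summed scaled intensities of 3697, 2593 and 2011 in H1975, OR1 and OR2. MCAM had the largest part of this sum in each line, at 2412, 1419 and 676.6. Its ratios were 0.588 (OR1) and 0.281 (OR2), called lower in OR2 only. ANPEP had ratios of 0.874 and 0.854 and DES 1.59 and 1.41 in OR1 and OR2. CSPG4, a pericyte proteoglycan that binds PDGF-AA, was the only one called higher in both lines, from a scaled intensity of 28.2 in H1975 to 355.0 (OR1) and 488.4 (OR2), ratios of 12.6 and 17.3. Its other probe was measurable on none of the arrays. NOTCH3 was called lower, at 0.115 and 0.236, RGS5 had 0.927 and 1.003, and KCNJ8 and ABCC9 were not well above background in any line. Of the pericyte markers, only CSPG4 moved with PDGFRB at the ratio of 2.

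Of 9 lung epithelial markers, 8 were well above background in each line, and the scaled intensities of all 9 summed to 248600, 107300 and 107200 in H1975, OR1 and OR2. EPCAM had ratios of 0.0370 and 0.0725 in OR1 and OR2, CDH1 0.0205 and 0.0800, KRT7 0.164 and 0.170 and KRT19 0.463 and 0.492, all called lower in both lines. Of all genes, 6.32% were called lower in both lines. KRT8 had 1.12 and 0.964 and KRT18 0.884 and 0.806. NKX2-1 had 0.252 and 1.37, called lower in OR1 only, and NAPSA had 0.770 and 1.57, while SFTPB was not well above background in any line. Of 4 endothelial markers 3 were well above background and 0 were called in both lines, with summed scaled intensities of 58.2, 72.6 and 65.9 in H1975, OR1 and OR2. Of 3 leukocyte markers on the array, CD14 had ratios of 4.25 and 6.56, PTPRC had 1.12 and 0.949, and CD3E was not well above background in any line, with a summed scaled intensity of 182.9, 730.9 and 1114. The lower EPCAM, CDH1, KRT7 and KRT19, 4 of the 9 epithelial markers, accompanied the higher PDGFRB and the lower PDGFA and PDGFB in both resistant lines, and their part in the PDGF values was not tested.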

How the data were processed

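The authors hybridized Cy3-labelled complementary RNA of each line to its own Agilent SuperPrint G3 human array. The deposited files hold the scanner software's spot intensity, corrected for background within the array and not scaled between arrays, its error and its flags (Agilent Feature Extraction 9.5.1.1 per the labels, modules 10.7.1.1 per the file headers). A second deposited table holds intensities normalized by a method not given in the sources used here. Their median absolute difference from quantile normalization of the spot intensities was 0.0013 on the log2 scale. Positions of probes follow the files, on hg19, and exon or UTR was not looked up for lack of an hg19 gene model.

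Control and outlier spots were left out (0 of them on PDGF probes), repeated spots were averaged as log2 intensity, and each array's 75th percentile was subtracted. The brightest probe by mean over the arrays stood for a gene. Where 1 side of a ratio was not well above background, it was set to the higher of its own value and the lowest measurable value of that array, and the ratio is a bound. Each resistant line was compared with H1975, and OR1 with OR2, as ratios of 1 array to 1 array, with technical SDs and without a test.

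Named genes are all PDGF genes, genes of 14 lists called in both lines or on which a result turns, neighbours within 500 kb called in both lines, and the 5 genes nearest to PDGFRB, of which 1 is not reported here. The genes of the family, the lists and the rules were chosen with earlier results of these data known. Of the listed genes, 3 were found under an older symbol. The alternatives were other scalings (quantile, median, none, 7 spike-in probes, the 75th percentile over probes measurable on all 3 arrays), normexp with an offset of 50, the authors' normalized intensities, other background filters, outlier spots kept, other probes per gene, ratios of 1.5 and 4, and limma with OR1 and OR2 as 2 samples. All 3 arrays shared a slide, which therefore could not be a block. Upstream sequence is from RefSeq on GRCh38.p14, and PDGFRL, PDGFB and PDGFC were not matched in that table. Calls were tested on simulated data. Python 3.11.15, numpy 2.4.6, pandas 2.3.3, matplotlib 3.10.9, R 4.3.3 and limma 3.58.1 were used.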

Additional observations from a re-analysis of the deposited data

Results flagged for a closer look

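PDGFC lay above H1975 in OR1, with a ratio of 1.23, and below it in OR2, with a ratio of 0.680, so that the single array of each resistant line moved in an opposite direction. This difference was not tested, and with 1 array per line it cannot be told apart from variation between cultures. Scaling on the spike-in probes put both lines below H1975, at 0.812 in OR1 and 0.713 in OR2.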

How the results depend on the processing

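Of 150 values of the PDGF genes under alternatives, 131 stayed within their technical SD, or within 1.5 times for counts, and 19 moved further. Among ratios past 2 or 0.5, 0 changed direction. Many of the 131 had no room to move. The probes behind the ratios were well above background on all 3 arrays with 0 outlier spots, so background filters and kept outliers hardly touched them. PDGFRL, PDGFB and PDGFC have a single probe each, so other probes per gene changed nothing for them. The authors' values nearly repeat quantile normalization, with a median absolute log2 difference of 0.0013 over 58200 probes, so these 2 alternatives are not separate support. Over 12 alternatives the ratio of PDGFRB ran from 4.13 to 12.4 in OR1 and from 3.03 to 8.84 in OR2, PDGFA from 0.159 to 0.413 and from 0.229 to 0.399, and PDGFB from 0.124 to 0.496 and from 0.197 to 0.472. Spike-in scaling, which moved the median log2 ratio of all probes in OR1 by -0.60, gave 7.94 for PDGFRB, 0.159 for PDGFA and 0.124 for PDGFB in OR1. No scaling moved that median by -0.19 and median scaling by -0.11. Normexp gave 4.13 and 3.03 for PDGFRB, 0.413 and 0.399 for PDGFA and 0.496 and 0.472 for PDGFB. The median over both PDGFRB probes gave at least 9.20 and at least 6.17, and the dimmer probe at least 7.03 and at least 4.54. PDGFRL in OR2 fell from 2.01 to 1.98 under quantile normalization, median scaling and the authors' values and to 1.47 with normexp. A ratio of 1.5 called 2 PDGF genes higher in both lines, PDGFRB and PDGFRL, by its construction. Limma called 1 higher and 0 lower at an adjusted p under 0.05, and 1 higher and 2 lower at an unadjusted p under 0.05. PDGFC in OR1 crossed 1 with spike-in scaling, as above. For the other moved values the cause was not tested. PDGFRB in H1975 and PDGFB in OR1 and OR2 lay within 2 times of the lowest measurable value, which limits how precisely their ratios can be read.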
